A study of Mus musculus with 18 samples.

Results

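Genes with a known bias to the portal side of the liver lobule were followed in isolated mouse hepatocytes: Gls2, Hal, Uroc1, Sds, Sdsl, Hsd17b13, Cdh1, Pigr and Ctsc. These 9 genes were taken by name from the 31053 genes counted in young and old mice and by the same Ensembl identifiers from the table of Smo-floxed mice, and all 9 had enough reads to be tested in both. Freshly isolated hepatocytes, obtained by collagenase perfusion and checked under the light microscope for purity and viability, were sequenced from male C57BL/6J wild-type mice. These mice were 3 months (young) or 24 months (old) of age. Hepatocytes were taken before surgery (0 h) or 48 h after partial hepatectomy (PH). PH takes out the larger part of the liver and makes the remnant regenerate. Each of the 4 groups held 3 mice. Young mice came from Jackson Laboratories and old mice from the NIA Aged Rodent Colonies. A second set came from male Smo flox/flox mice (Smo tm2Amc/J on the C57BL/6J background), aged 3 months by their labels, which received AAV8-TBG-Luc (Smo (+)) or AAV8-TBG-Cre (Smo (-)) 7 days before PH. There was 1 Smo (+) mouse and there were 2 Smo (-) mice at each time. All mice of that set, controls included, carried the floxed alleles and a virus, and the TBG promoter acts in hepatocytes, so that other liver cells keep Smo.

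Hepatocytes divide their work along the path of the blood. Cells around the portal vein, where oxygen-rich blood enters, break down amino acids, make urea and release glucose, while cells around the central vein make glutamine and bile acids and carry out much of the drug metabolism under Wnt and beta-catenin signaling. Gls2 (liver glutaminase), Hal (histidine ammonia-lyase, the first step of histidine breakdown), Uroc1 (urocanate hydratase, the next step), Sds (serine dehydratase) and Sdsl (a protein of the same family) are enzymes of amino acid breakdown. Hsd17b13 is an enzyme of the hydroxysteroid dehydrogenase family that sits on lipid droplets. Cdh1 is E-cadherin, which holds epithelial cells together, Pigr is the polymeric immunoglobulin receptor that carries IgA across the cell into bile, and Ctsc is cathepsin C, a lysosomal protease that also activates granule proteases in immune cells.

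In the mouse genome (GRCm38, the assembly also called mm10) the members lay on 6 autosomes. Sdsl (chr5:120458186-120472810, minus strand) and Sds (chr5:120476526-120483932, plus strand) were neighbours, and Hsd17b13 was on the same chromosome (chr5:103955440-103977410, minus strand). Hal (chr10:93488768-93519304) and Gls2 (chr10:128194457-128210004) shared another, both on the plus strand. Cdh1 (chr8:106603351-106670246), Uroc1 (chr6:90333284-90364551), Pigr (chr1:130826684-130852249) and Ctsc (chr7:88278085-88310888) were all on the plus strand. Sds shared 360 exon bases with Plbd2 on the opposite strand and 141 with the antisense gene Gm15690. Gls2 shared 97 exon bases with Spryd4, also on the opposite strand. The strand setting of the authors' counting is not given in the sources used here, so reads of these genes cannot be told apart where they overlap. Plbd2 was at 127, 134 and 130.3 CPM in young and at 141, 111 and 119 CPM in old hepatocytes. Gm15690 was far lower, at 11.5, 10.5 and 11.8 CPM in young and at 1.02, 0.992 and 4.34 CPM in old hepatocytes, and so was lower in old libraries as Sds was.

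Hal, Uroc1 and Pigr fell after PH in young and in old mice, and the 250 bases before the start sites of Hal and Pigr are shown because these held a motif that was searched for. The sequences are from RefSeq (GRCm38.p6, plus strand, 5′ to 3′), chr10:93488518-93488767 for Hal and chr1:130826434-130826683 for Pigr. Capitals mark the motifs found in a search of both strands for a TATA box (TATAAA, or TTTATA on the other strand), a TCF/LEF motif (CTTTGAT), an E-box (CACGTG), a GLI motif (GGGTGGTC) and an HNF4 motif (CAAAGTCC).
Hal: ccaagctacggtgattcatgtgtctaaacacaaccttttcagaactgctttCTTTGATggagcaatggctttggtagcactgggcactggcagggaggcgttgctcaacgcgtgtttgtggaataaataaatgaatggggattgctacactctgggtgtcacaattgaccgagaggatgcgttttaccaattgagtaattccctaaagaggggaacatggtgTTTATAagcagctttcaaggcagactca
Pigr: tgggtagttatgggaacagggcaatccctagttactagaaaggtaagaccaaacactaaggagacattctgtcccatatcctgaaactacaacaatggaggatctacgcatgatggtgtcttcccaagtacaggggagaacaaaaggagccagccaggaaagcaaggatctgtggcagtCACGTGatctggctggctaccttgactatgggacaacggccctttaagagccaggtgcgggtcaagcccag
In Hal the TCF/LEF motif began 199 bases and the TATA box, in its reverse form, 28 bases before the start site. These are letters found in 3.21% and 12.4% of the 32851 mouse promoters searched. In Pigr the E-box began 71 bases before the start site, and 6.02% of promoters held it. The GLI motif (0.703% of promoters) and the HNF4 motif (1.2%) were in none of the 5 members with a promoter in the table (Hal, Pigr, Hsd17b13, Uroc1 and Ctsc), and no motif of the 5 was in the windows of Hsd17b13, Uroc1 or Ctsc. A match of letters is a description and not a measured binding site.

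Each library of wild-type mice held 17089525 to 36646939 read pairs in genes and each library of floxed mice 16835686 to 19151731, so each member rested on at least 101 read pairs in every library. Levels are given as CPM, the read pairs of a gene relative to its library's total after TMM scaling, and the tables were scaled separately. Pairs outside genes made up 25.2 to 33.9% of the counted pairs in the young libraries, with and without PH, and 2.03 to 3.74% in the old ones. Malat1, a nuclear RNA, was at 3149 to 6238 CPM in the young and at 25.1 to 157 CPM in the old libraries. Age, the supplier of the mice and these differences between libraries cannot be told apart in any comparison of old with young mice. The Smo (+) library at 0 h stood apart from the other floxed libraries, with 22.5% of its reads from mitochondrial genes against 3.32 to 6.85%. The hepatocyte markers were high in every library (55911 to 181829.9 CPM summed over 9 genes), with markers of immune and endothelial cells present at different levels, given beside the results they touch. The Smo gene was at 6.17 CPM in the Smo (+) library and at 1.42 and 3.29 CPM in the Smo (-) libraries at 0 h, and at 11.0 against 1.51 and 1.20 CPM at 48 h after PH. In these bulk samples, fewer cells of a zone and less RNA per cell cannot be told apart.

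Per kilobase of exon, Pigr had the highest group mean of the members in young (362 CPM per kb), old (669.5) and old regenerating hepatocytes (213), and Uroc1 (132, against 102 for Pigr) in young regenerating hepatocytes. The least abundant member in young hepatocytes was Sdsl, at 2.68 CPM per kb, against 65.5 for Sds. In old hepatocytes the lowest was Cdh1, at 5.22 CPM per kb. In floxed mice Pigr again led at 0 h and 48 h, with group means of 179 to 593 CPM per kb.

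**Figure D1:**
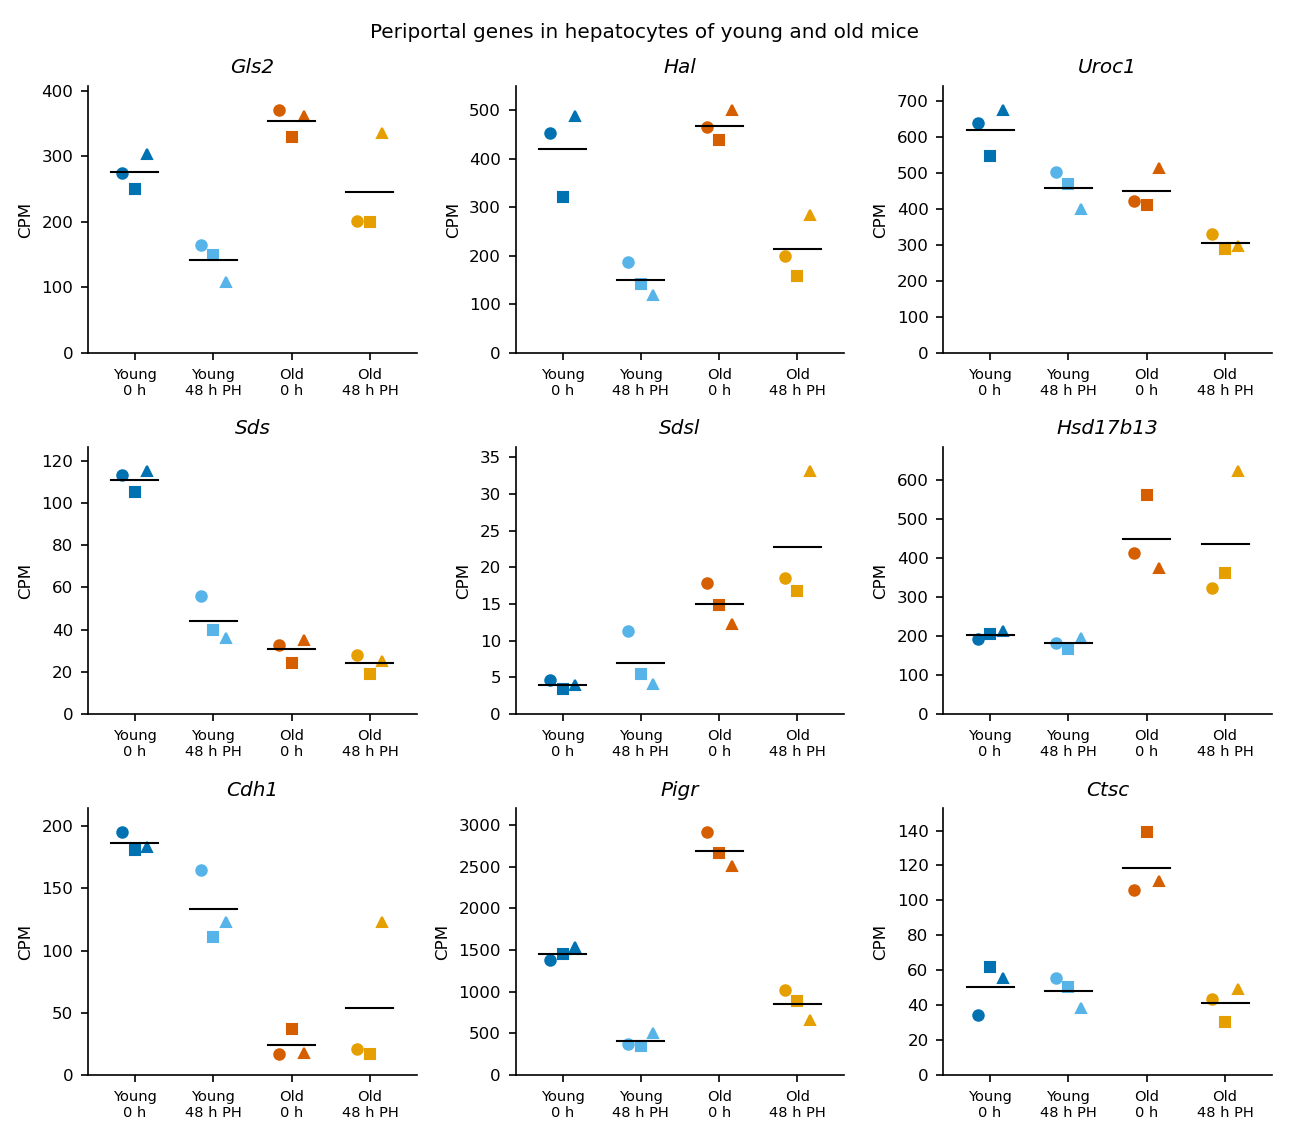
Level of each periportal gene in CPM (linear axes from 0) in the 12 libraries of young and old mice, before and 48 h after PH. Points are single mice, with a different shape for each replicate number, and black lines are group means. Sds and Cdh1 were high in young libraries at 0 h (105 to 115 and 181 to 195 CPM) and low in old ones (24.3 to 35.0 and 16.8 to 36.9 CPM), while Pigr was lower after PH at both ages.

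The first comparison asked how the periportal genes differed between old and young hepatocytes before surgery. The members did not move as a block. In old hepatocytes 4 of 9 were higher (Sdsl, Hsd17b13, Pigr and Ctsc), 3 were lower (Sds, Cdh1 and Uroc1), and Gls2 and Hal did not pass the test, which was edgeR's quasi-likelihood test with Benjamini-Hochberg adjusted p under 0.05 over all genes tested. The median log2 fold change of the members was 0.36, against -0.05 over all 14554 genes. As 63.0% of all genes tested passed in this comparison (29.3% higher and 33.7% lower), the number of members that passed does not set them apart.

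Serine dehydratase and its relative moved in opposite directions. Sds was at 113, 105 and 115 CPM in young and at 32.5, 24.3 and 35.0 CPM in old hepatocytes. Every old library was below every young one, and the log2 fold change was -1.86 (SE 0.188, edgeR adjusted p = 1.87e-06), 3.62-fold lower. Sdsl, next to it on the chromosome, was at 4.65, 3.39 and 3.98 CPM in young and at 17.8, 14.9 and 12.3 CPM in old hepatocytes. Here every old library was above every young one, and the log2 fold change was 1.90 (SE 0.352, edgeR adjusted p = 3.44e-04). Compared per kilobase of exon, the level of Sds was 21.6, 27.3 and 25.5 times that of Sdsl in the young libraries and 1.61, 1.45 and 2.51 times in the old ones.

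The other amino acid enzymes differed little with age at 0 h. Gls2 was at 275, 249.9 and 304 CPM in young and at 370.3, 329 and 362 CPM in old hepatocytes. The groups did not overlap, but the log2 fold change of 0.36 (SE 0.204) missed the threshold (edgeR adjusted p = 0.142). A fit of only these 2 groups called it (0.37, edgeR adjusted p = 0.0380). Hal was at 452, 322 and 488 CPM in young and at 466, 438 and 499.6 CPM in old hepatocytes, which overlap (log2 fold change 0.15, SE 0.225, edgeR adjusted p = 0.572). Uroc1, which acts on the product of Hal, was at 638, 547 and 673 CPM in young and at 422, 411 and 513 CPM in old hepatocytes. All old libraries were below all young ones (log2 fold change -0.47, SE 0.148, edgeR adjusted p = 0.0137). This call was lost without Young library 1 (adjusted p = 0.0512), Young library 3 (0.0541), Old library 1 (0.125) or Old library 2 (0.124).

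Hsd17b13 and Pigr were higher in old hepatocytes. Hsd17b13 was at 192, 206 and 213 CPM in young and at 413, 562 and 373 CPM in old mice, without overlap and with a log2 fold change of 1.14 (SE 0.224, edgeR adjusted p = 5.65e-04). Pigr was at 1377, 1452 and 1542 CPM in young and at 2915, 2662 and 2508 CPM in old mice. Again no old library fell within the young range, and the log2 fold change was 0.89 (SE 0.194, edgeR adjusted p = 0.00124).

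Cdh1 had the largest change with age among the members. Its level was 195, 181 and 183 CPM in young and 16.8, 36.9 and 17.9 CPM in old hepatocytes. The groups were far apart, with a log2 fold change of -2.97 (SE 0.604, edgeR adjusted p = 7.35e-04). Of 7 genes that work with E-cadherin in the adherens junction, 3 were lower in old hepatocytes, among them Ctnnd1, which encodes p120-catenin (log2 fold change -1.39, SE 0.142), Afdn, which encodes afadin (-1.41, SE 0.167), and Cdh2, the other classical cadherin of hepatocytes (-0.92, SE 0.137), while 2 were higher and 2 did not pass. These counts are near the shares of all genes (33.7% lower and 29.3% higher). Bile duct cells, which also make E-cadherin, left little trace in either group: their marker Krt19 was at 0 to 0.127 CPM in young and at 0 to 0.347 CPM in old libraries, and Epcam at 0 to 0.0950 and 0 to 0.132 CPM.

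Ctsc was at 34.4, 61.7 and 55.4 CPM in young and at 106, 139 and 111 CPM in old hepatocytes, without overlap, and its log2 fold change was 1.23 (SE 0.225, edgeR adjusted p = 3.16e-04). Immune cell markers moved with it. Their level summed over 18 genes was 43.4, 66.7 and 63.7 CPM in the young libraries and 80.5, 451 and 385 CPM in the old ones. Clec4f, a marker of Kupffer cells, was at 25.4, 122 and 165 CPM in the old libraries. Of the immune markers tested 10 of 11 were higher in old hepatocytes and 0 lower, against 29.3% and 33.7% of all genes. Stellate cell markers were higher in 5 of 8 and lower in 1 of 8. Endothelial markers were higher in 0 and lower in 2 of 8. S100a8 was at 0 in every young library, and no immune marker was at 0 in every old library. Old library 1, with the lowest immune markers of its group, had 106 CPM of Ctsc. Without Old libraries 2 and 3, a step chosen after seeing the data, the log2 fold change of Ctsc was 1.12 (edgeR adjusted p = 0.00675), where the lone old library left is assumed to vary like the other groups. The part of immune, stellate and endothelial cells in this difference was not tested.

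The second question was how the periportal genes responded 48 h after PH at each age. In young regenerating hepatocytes 5 of 9 members fell (Gls2, Hal, Sds, Uroc1 and Pigr), 0 rose and 4 did not pass, with a median log2 fold change of -0.49 against -0.01 over all genes. Of all genes tested 34.2% passed, 16.4% lower and 17.8% higher. In old regenerating hepatocytes 4 of 9 fell (Hal, Uroc1, Pigr and Ctsc), 0 rose and 5 did not pass, with a median of -0.53 against 0.08 over all genes. Here 37.6% of all genes passed, 15.1% lower and 22.5% higher.

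Pigr fell most. It went from 1377 to 1542 CPM in young hepatocytes to 374, 345 and 510.0 CPM after PH, and from 2508 to 2915 CPM in old hepatocytes to 1019, 883 and 666 CPM. At neither age did libraries of the different times overlap. The log2 fold changes were -1.83 in young (SE 0.198, edgeR adjusted p = 1.07e-05) and -1.65 in old mice (SE 0.197, edgeR adjusted p = 3.09e-05), and their difference of 0.18 (SE 0.272) was not called (edgeR adjusted p = 0.766). Old regenerating hepatocytes also had more Pigr than young regenerating ones (log2 fold change 1.06, SE 0.194, edgeR adjusted p = 3.28e-04).

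The genes of histidine breakdown fell at both ages. Hal was at 188, 142 and 119 CPM in young regenerating hepatocytes, below all 3 young libraries at 0 h, and at 200.3, 158 and 284 CPM in old regenerating hepatocytes, below all 3 old libraries at 0 h. It fell by 1.49 on the log2 scale in young (SE 0.230, edgeR adjusted p = 2.22e-04) and by 1.13 in old mice (SE 0.228, edgeR adjusted p = 0.00184). Uroc1 was at 502, 469 and 399.8 CPM in young and at 331, 287 and 298 CPM in old regenerating hepatocytes, again below the libraries at 0 h of the same age. Its changes were smaller, at -0.44 in young (SE 0.148, edgeR adjusted p = 0.0341) and -0.55 in old mice (SE 0.148, edgeR adjusted p = 0.00989). The call in young mice was lost without Young library 1 (adjusted p = 0.0967), Young library 3 (0.120), Young PH library 2 (0.0812) or Young PH library 3 (0.146), and that in old mice without Old libraries 2 and 3 (0.0846). Ftcd, which acts at the end of the same pathway, fell in young (log2 fold change -1.36, SE 0.127) and old mice (-0.51, SE 0.125), and the difference between these responses was 0.85 (SE 0.176, edgeR adjusted p = 0.0244).

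Gls2 was at 165, 149.9 and 109 CPM in young regenerating hepatocytes, which lay below the 249.9 to 304 CPM of young hepatocytes (log2 fold change -0.97, SE 0.206, edgeR adjusted p = 0.00243). In old regenerating hepatocytes it was at 202, 200.0 and 336 CPM, and the highest of these lay within the 329 to 370.3 CPM of old hepatocytes. The log2 fold change in old mice was -0.53 (SE 0.205, edgeR adjusted p = 0.0576). This is close to the threshold: without Old PH library 3 the value was -0.81 (edgeR adjusted p = 0.00426), without Old library 2 or Young PH library 3 the adjusted p was 0.0458 or 0.0457, and with all libraries DESeq2 called it (0.0158). The difference between the responses at the 2 ages was 0.44 (SE 0.289, edgeR adjusted p = 0.413).

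Sds fell in young mice to 55.8, 39.9 and 35.9 CPM (log2 fold change -1.34, SE 0.183, edgeR adjusted p = 8.36e-05). In old mice it was already low and was at 27.8, 19.1 and 25.2 CPM after PH, which overlapped the 24.3 to 35.0 CPM before it (log2 fold change -0.35, SE 0.187, edgeR adjusted p = 0.156; -0.55 and 0.0426 without Old library 2). The difference between the responses was 0.99 (SE 0.260) and missed the threshold (edgeR adjusted p = 0.0552), with 2 single libraries, Young PH library 1 and Old PH library 2, whose omission brought it under it (0.0381 and 0.0433). Sdsl went the other way in sign and was variable. Its level was 11.3, 5.43 and 4.10 CPM in young and 18.6, 16.8 and 33.1 CPM in old regenerating hepatocytes, and its changes of 0.79 in young (edgeR adjusted p = 0.0937) and 0.61 in old mice (edgeR adjusted p = 0.168) did not pass, although without Young PH library 3 the change in young mice was 1.07 (edgeR adjusted p = 0.0279).

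**Figure D2:**
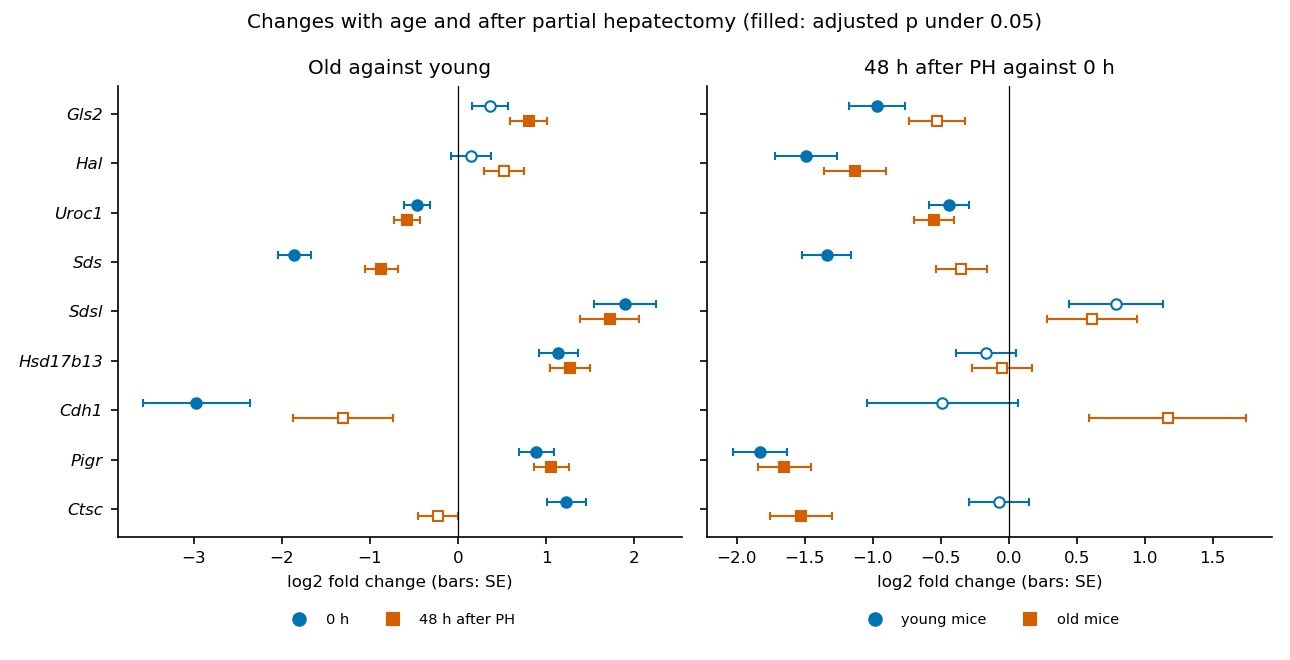
Log2 fold changes of the periportal genes from edgeR, with bars for the standard error and filled points for an adjusted p under 0.05. The left panel sets old against young hepatocytes at 0 h and at 48 h after PH, and the right panel sets 48 h after PH against 0 h in young and in old mice. Sdsl, Hsd17b13 and Pigr lay to the right at both times and Sds and Uroc1 to the left, and Pigr and Hal lay to the left after PH at both ages.

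No change of Hsd17b13 after PH passed the test. It was at 182, 167 and 194 CPM in young and at 323, 361 and 622 CPM in old regenerating hepatocytes, with changes of -0.17 (edgeR adjusted p = 0.589) and -0.05 (edgeR adjusted p = 0.898). Both groups overlapped those at 0 h of the same age. The difference between the ages, in contrast, was found again at 48 h (log2 fold change 1.27, SE 0.225, edgeR adjusted p = 2.58e-04).

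Ctsc was the member whose response to PH differed between the ages. In young mice it was at 55.8, 50.3 and 38.5 CPM after PH, within the 34.4 to 61.7 CPM of young hepatocytes, and its log2 fold change was -0.07 (edgeR adjusted p = 0.849). In old mice it was at 43.8, 30.6 and 49.2 CPM after PH, below every old library at 0 h, and fell by 1.53 on the log2 scale (SE 0.228, edgeR adjusted p = 1.99e-04). The difference between the responses was -1.46 (SE 0.317, edgeR adjusted p = 0.0294), the 1 call among the 9 members, where 3.26% of all genes passed (2.27% higher and 0.983% lower). This call is close to the threshold and was lost without Young library 1 (adjusted p = 0.0627), Young library 3 (0.0542), Young PH library 1 (0.0666), Young PH library 2 (0.0788), Old library 2 (0.0576) or Old PH library 2 (0.0558), and without Old libraries 2 and 3 together (0.0684). The summed immune markers were at 49.3, 62.1 and 56.2 CPM in young and at 64.7, 74.9 and 23.8 CPM in old regenerating libraries. Of the 11 tested, 9 were lower in old mice after PH and 0 higher, against 15.1% and 22.5% of all genes. Endothelial markers were lower there too, in 7 of 8 genes, with sums of 74.0 to 221 CPM in old and 39.1 to 57.5 CPM in old regenerating libraries. Cd3g and Cd3e were at 0 in every old regenerating library and Ms4a1 and S100a9 in every young regenerating one, and the part of immune and endothelial cells in the change of Ctsc was not tested.

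Cdh1 was at 165, 111 and 123 CPM in young regenerating hepatocytes, below the 181 to 195 CPM of young hepatocytes. Its log2 fold change of -0.49 did not pass (edgeR adjusted p = 0.542). A fit of only these 2 groups called it (-0.47, edgeR adjusted p = 0.0250). In old regenerating hepatocytes it was at 21.2, 16.6 and 123 CPM. Old PH library 3 was within the range of young regenerating hepatocytes, Old PH library 1 was within that of old hepatocytes at 0 h and Old PH library 2 was just below it. The fitted change in old mice was 1.17 (SE 0.577, edgeR adjusted p = 0.128), and without that library it was -0.32 (edgeR adjusted p = 0.430), while without Old PH library 1 or 2 it was 1.56 (0.0486) or 1.61 (0.0295). Bile duct markers were at or near 0 in Old PH library 3 (Krt19 0, Krt7 0.196 and Epcam 0.0490 CPM).

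At 48 h after PH, 6 of 9 members still differed between old and young regenerating hepatocytes, with 62.1% of all genes passing (29.7% higher and 32.4% lower in old). Gls2 (log2 fold change 0.80, SE 0.205, edgeR adjusted p = 0.00399), Sdsl (1.72, SE 0.337, 5.72e-04), Hsd17b13 and Pigr were higher in old mice. Sds (-0.87, SE 0.185, 0.00107) and Uroc1 (-0.58, SE 0.148, 0.00373) were lower. None of these 6 had overlapping libraries, and the share of all genes without overlap is not given here. Hal (0.52, adjusted p = 0.0609), Cdh1 (-1.31, 0.0576) and Ctsc (-0.23, 0.396) were not called, but without Old PH library 3 Cdh1 was at -2.81 (9.70e-06). Hal passed without Young PH library 1 (0.0242) or Old PH library 2 (0.0196), as it did without Old library 1, 2 or 3 (0.0397, 0.0436 and 0.0441). The median of the members was 0.52 against -0.07 over all genes. This comparison shares libraries with those above and is not separate evidence for them.

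The floxed mice ask what happens to the periportal genes when hepatocytes lose Smo, the membrane protein that passes on Hedgehog signals. With 1 Smo (+) library at each time, every p below assumes that this library varies like the Smo (-) libraries. At 0 h, 5 of 9 members were higher in Smo (-) than in Smo (+) hepatocytes (Gls2, Hal, Uroc1, Sds and Sdsl), all of them enzymes of amino acid breakdown, and Ctsc was lower, with 27.4% of all genes passing (13.9% higher and 13.5% lower). The median of the members was 1.03 against 0.00 over all genes.

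Gls2 was at 204 CPM in the Smo (+) library and at 494 and 464 CPM in the Smo (-) libraries (log2 fold change 1.23, SE 0.229, edgeR adjusted p = 0.00774). Hal was at 147 against 362 and 319 CPM (1.21, SE 0.297, 0.0182), and Uroc1 at 248 against 618 and 547 CPM (1.23, SE 0.243, 0.00898). In these 3 genes the Smo (-) libraries lay close to each other and more than 2-fold above the Smo (+) library. Sds was at 12.7 against 36.6 and 73.5 CPM, with a wide gap within Smo (-) (2.12, SE 0.425, 0.00938), and Sdsl at 7.99 against 16.9 and 15.7 CPM (1.03, SE 0.236, 0.0145). Unlike with age, Sds and Sdsl were on the same side here.

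Cdh1 (46.3 against 51.7 and 67.7 CPM), Hsd17b13 (234 against 166 and 191 CPM) and Pigr (2388 against 1886 and 1899 CPM) did not pass at 0 h, with log2 fold changes of 0.37 (SE 0.236), -0.39 (SE 0.201) and -0.34 (SE 0.254). Ctsc was at 88.8 CPM in the Smo (+) library and at 34.8 and 36.7 CPM in the Smo (-) libraries (log2 fold change -1.31, SE 0.177, edgeR adjusted p = 0.00341). The Smo (+) library also had the most immune and endothelial markers of the floxed set at 0 h. The sum of immune markers was 333 CPM against 59.4 and 89.3 CPM in Smo (-). That of endothelial markers was 828 CPM against 139.9 and 286 CPM. Of the markers tested, 7 of 12 immune and 8 of 8 endothelial ones were lower in Smo (-), against 13.5% of all genes. Bile duct markers were lower in 5 of 9 and higher in 2 of 9. Among them Krt19 was at 4.35 CPM in Smo (+) and at 0.113 and 0 CPM in Smo (-). Cd3g and Cd3e were at 0 in both Smo (-) libraries at 0 h and no immune marker was at 0 in the Smo (+) library. The 22.5% of mitochondrial reads and 4734 CPM of Malat1 (198 and 699.6 CPM in Smo (-)) in the same library belong beside all 6 calls, and with a lone library the virus and the make-up of that library cannot be told apart.

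**Figure D3:**
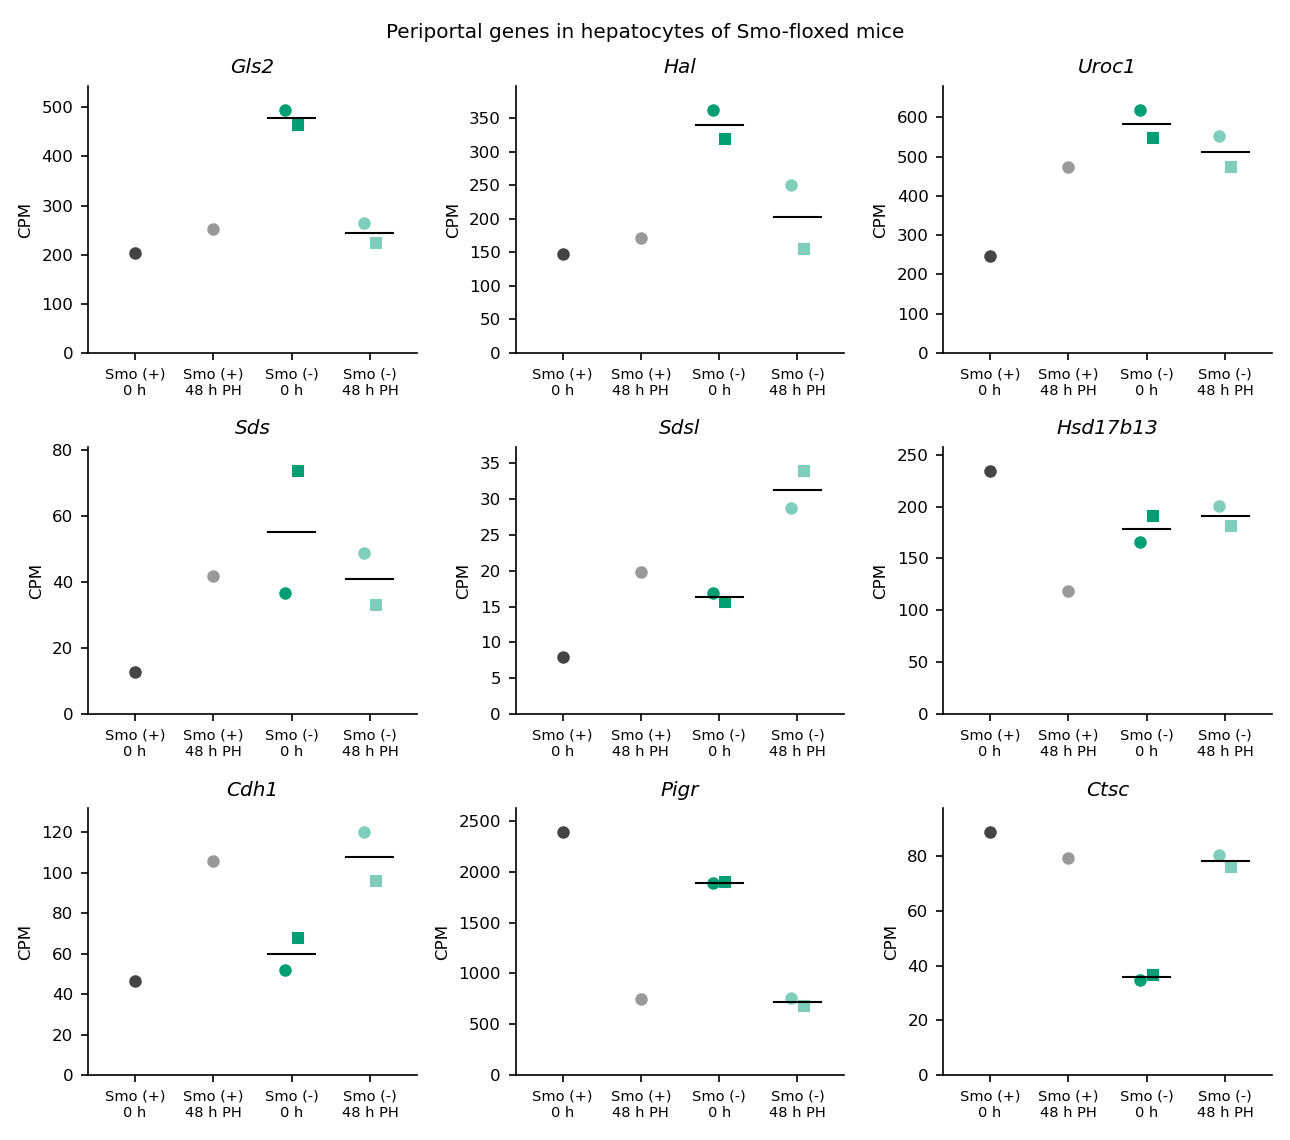
Level of each periportal gene in CPM (linear axes from 0) in the 6 libraries of Smo-floxed mice. Points are single mice, and black lines are means where a group has 2 mice. At 0 h the Smo (+) library had 204 CPM of Gls2 and 147 CPM of Hal, under both Smo (-) libraries, while at 48 h after PH the Smo (+) value of Gls2 (253 CPM) lay between those of Smo (-) (265 and 224 CPM).

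At 48 h after PH, none of the 9 members was called between Smo (-) and Smo (+) by edgeR or by DESeq2, with 0.125% of all genes passing in edgeR (0.0366% higher and 0.0879% lower). At an unadjusted p under 0.05 there were 2, Sdsl and Hsd17b13. Sdsl was at 19.8 CPM in Smo (+) and at 28.8 and 33.9 CPM in Smo (-) (log2 fold change 0.66, SE 0.214, edgeR adjusted p = 0.627), and Hsd17b13 at 119 against 201 and 181 CPM (0.68, SE 0.210, 0.609). For the other 7 members the Smo (+) value lay between the Smo (-) values, and the log2 fold changes ran from -0.05 to 0.24 with SEs of 0.180 to 0.368.

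After PH the Smo (-) hepatocytes changed in 6 of 9 members, with 30.2% of all genes passing (16.0% higher and 14.2% lower). Gls2 fell to 265 and 224 CPM (log2 fold change -0.97, edgeR adjusted p = 0.00342), Hal to 251 and 155 CPM (-0.75, 0.0355) and Pigr to 761 and 682 CPM (-1.39, 0.00131). Sdsl rose to 28.8 and 33.9 CPM (0.94, 0.00340), Cdh1 to 120.0 and 95.8 CPM (0.85, 0.00861) and Ctsc to 80.5 and 76.2 CPM (1.13, 5.99e-04). In each of these 6 the Smo (-) libraries of the different times, 2 at each, did not overlap. The share of all genes without such overlap is not given here. The call for Hal was lost without Smo (-) library 1 (0.0974), Smo (-) library 2 (0.0562) or Smo (-) PH library 2 (0.350). That for Cdh1 was lost without Smo (-) PH library 1 (0.0542). The bile duct marker Krt19 went from 0.113 and 0 CPM to 1.16 and 0.507 CPM. Its log2 fold change was 3.67 (SE 1.01, edgeR adjusted p = 0.0231). Of 9 bile duct markers tested, 1 was higher and 2 were lower after PH. The part of bile duct cells in the change of Cdh1 was not tested. Sds (-0.43), Uroc1 (-0.19) and Hsd17b13 (0.10) were not called, although Sds passed without Smo (-) PH library 1 (-0.74, 0.0380) or Smo (-) library 1 (-0.85, 0.0217).

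Here Ctsc again went with the immune markers, whose sum was 171 and 206 CPM in the Smo (-) PH libraries. Of those tested 7 of 12 were higher than in Smo (-) and 0 lower, against 16.0% and 14.2% of all genes. Gzma and Cd3e were at 0 in both libraries. Endothelial markers were higher in 4 of 8 and lower in 0. The part of immune and endothelial cells in the result was not tested. Over all 18 libraries of both tables, which were scaled separately, the 3 old libraries at 0 h had the most Ctsc and 2 of them the most immune markers, while Old library 1 had 106 CPM of Ctsc at an immune sum of 80.5 CPM and Smo (-) library 2 had 36.7 CPM at a sum of 89.3 CPM.

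**Figure D4:**
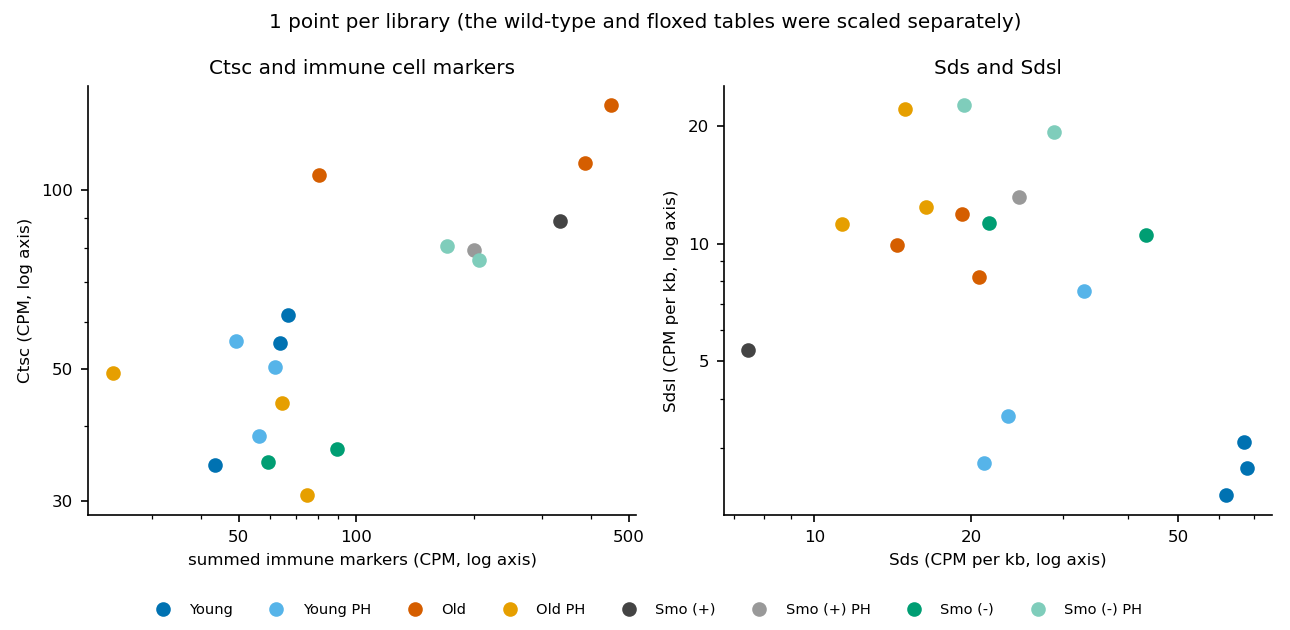
The left panel plots Ctsc against the sum of 18 immune cell markers, both in CPM on log axes, and the right panel Sdsl against Sds, both in CPM per kb on log axes, with 1 point for each library of all 8 groups. Ctsc was at 106 to 139 CPM in the old libraries, whose immune sums ran from 80.5 to 451 CPM. The young libraries at 0 h lay apart at the lower right of the second panel, with Sds at 21.6 to 27.3 times the level of Sdsl.

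In the lone Smo (+) mice the values at 0 h and 48 h were 12.7 and 41.8 CPM for Sds, 7.99 and 19.8 CPM for Sdsl, 248 and 474 CPM for Uroc1 and 46.3 and 106 CPM for Cdh1, all higher after PH. Pigr (2388 and 744 CPM) and Hsd17b13 (234 and 119 CPM) were lower. Gls2 (204 and 253 CPM), Hal (147 and 171 CPM) and Ctsc (88.8 and 79.3 CPM) were closer at both times. These are values of 1 mouse against 1 and have no test.

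The response to PH differed between Smo (-) and Smo (+) in 4 of 9 members, where 10.7% of all genes passed (4.60% higher and 6.14% lower). At 48 h none of these 4 was called, with log2 fold changes of -0.05 for Gls2, -0.03 for Sds, -0.02 for Ctsc and 0.68 for Hsd17b13. Each difference includes the lone Smo (+) library at 0 h, with its 22.5% of mitochondrial reads. The virus and the make-up of that library cannot be told apart here either. For Sds the difference was -2.15 (SE 0.546, edgeR adjusted p = 0.0413), for Gls2 -1.28 (SE 0.307, 0.0365), for Ctsc 1.30 (SE 0.258, 0.0261) and for Hsd17b13 1.07 (SE 0.289, 0.0466). Uroc1 (-1.12, SE 0.325, 0.0561) and Hal (-0.97, SE 0.398, 0.130) missed the threshold. The call for Gls2 was lost without Smo (-) PH library 2 (0.0908), and that for Hsd17b13 without Smo (-) PH library 1 (0.136) or Smo (-) PH library 2 (0.0722). Uroc1 passed without Smo (-) library 2 (0.0323), under DESeq2 (0.0159) and without the low-count filter (0.0147), and Hal without Smo (-) PH library 1 (0.0376) and without the filter (0.0243).

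**Figure D5:**
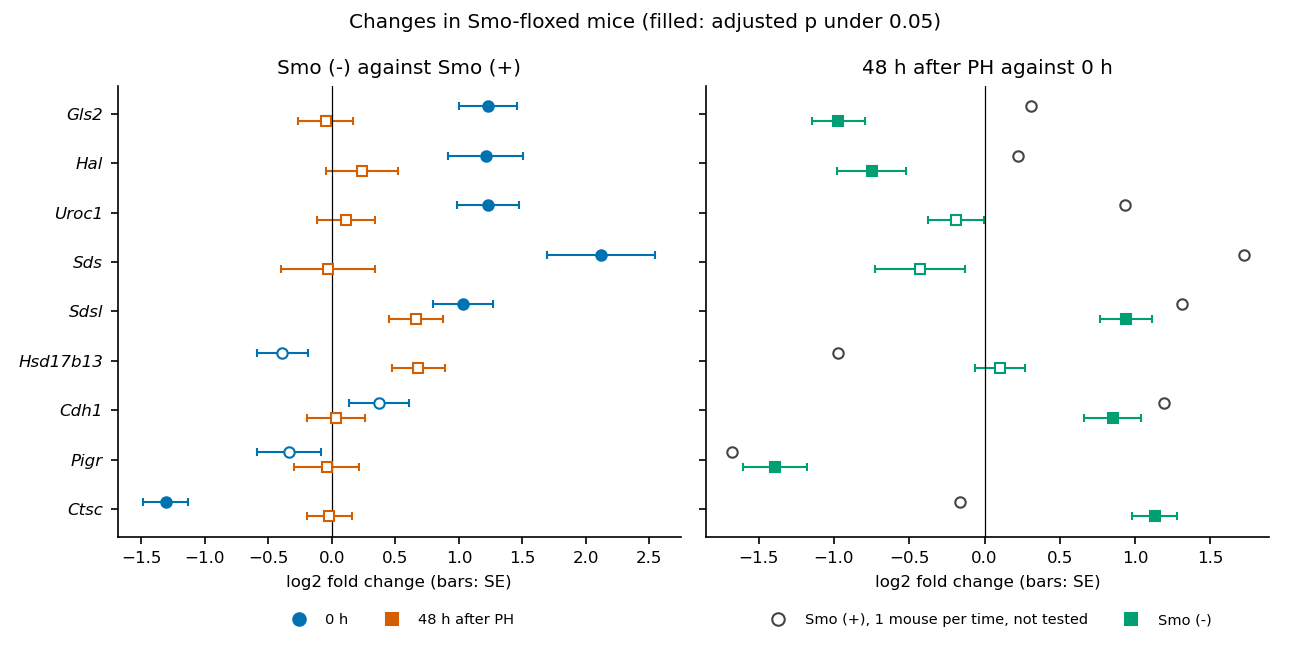
Log2 fold changes of the periportal genes in floxed mice from edgeR, with bars for the standard error and filled points for an adjusted p under 0.05, with the spread of Smo (+) taken from Smo (-). The left panel sets Smo (-) against Smo (+) at 0 h and 48 h after PH, and the right panel 48 h after PH against 0 h in Smo (-) and, as open points with no bar and no test, in Smo (+) (1 mouse against 1). In the left panel the points for Gls2, Hal, Uroc1, Sds and Sdsl at 0 h lay at 1.03 to 2.12, and no point at 48 h was filled.

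Related genes from lists written from general knowledge give the setting of these changes. Of 12 other periportal genes, 4 were higher and 4 lower in old hepatocytes at 0 h (median -0.01), near the 29.3% and 33.7% of all genes, and the smallest adjusted p values were those of Fbp1 (log2 fold change 0.95, SE 0.197), an enzyme of glucose production, Arg1 of the urea cycle (0.87, SE 0.238) and the apolipoprotein gene Apoa4 (1.72, SE 0.490). After PH 4 of the 12 fell and 1 rose in young mice (median -0.22), and 2 fell and 1 rose in old mice (median -0.16), where 16.4% and 15.1% of all genes fell and 17.8% and 22.5% rose. Cyp2f2, a periportal cytochrome P450, fell at both ages (-1.85, SE 0.213, and -1.98, SE 0.215), as did G6pc, the last enzyme of glucose release (-3.19, SE 0.383, and -1.60, SE 0.361), while Apoa4 rose (4.22, SE 0.539, and 2.60, SE 0.501). In Smo (-) against Smo (+) hepatocytes at 0 h 9 of the 12 were higher and 0 lower (median 1.38), against 13.9% and 13.5% of all genes. They were led by Arg1 (1.82, SE 0.264), Aldh1b1, an aldehyde dehydrogenase (1.36, SE 0.211), and Etnppl, which breaks down phosphoethanolamine (3.44, SE 0.576). These counts rest on the lone Smo (+) library that stood apart at 0 h. At 48 h after PH 0 of the 12 were higher and 0 lower in Smo (-) (median 0.00).

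Of 18 pericentral genes, those of the opposite zone, 7 were higher and 2 lower in old hepatocytes at 0 h (median 0.45), against 29.3% and 33.7% of all genes, with Rgn, which encodes regucalcin (1.60, SE 0.140), and Oat, ornithine aminotransferase (1.59, SE 0.217), higher and Lgr5, a receptor that strengthens Wnt signaling, lower (-1.48, SE 0.189). In Smo (-) hepatocytes at 0 h, set beside the same lone Smo (+) library, 0 were higher and 2 lower (median -0.38), against 13.9% and 13.5% of all genes. Among 14 regulators of zonation 9 were lower in old hepatocytes and 0 higher (median -0.88), against the same 33.7% and 29.3%, among them Tcf7l2, a transcription factor of the Wnt pathway (-2.93, SE 0.146), Apc, which restrains that pathway (-1.66, SE 0.131), and Onecut1, a hepatocyte transcription factor (-4.98, SE 0.528). The library and supplier differences between ages named above lie in the same comparison.

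Among 16 partners of the members in histidine, glutamine and serine metabolism, 8 were higher and 2 lower in old hepatocytes (median 0.61), against 29.3% and 33.7% of all genes. Psph, which makes serine (1.79, SE 0.219), and Amdhd1, the enzyme after Uroc1 (0.87, SE 0.171), were higher, and Slc38a2, an amino acid transporter, was lower (-1.57, SE 0.213). In young regenerating hepatocytes 8 of 16 fell and 2 rose (median -0.38), against 16.4% and 17.8% of all genes, with Otc of the urea cycle at -1.12 (SE 0.152) and Agxt, which turns glyoxylate into glycine, at -1.28 (SE 0.197). In old regenerating hepatocytes 5 fell and 2 rose (median -0.32), against 15.1% and 22.5%, with Psat1, an enzyme of serine synthesis, at 1.73 (SE 0.421). In Smo (-) against Smo (+) at 0 h 8 were higher and 0 lower (median 0.86), against 13.9% and 13.5%. Gldc, which breaks down glycine, was at 1.81 (SE 0.244), Cps1, the entry to the urea cycle, at 2.03 (SE 0.351) and Otc at 1.51 (SE 0.267). This too rests on the lone Smo (+) library at 0 h, and at 48 h after PH 0 of the 16 were higher and 0 lower (median 0.05).

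The members also varied within groups. Old PH library 3 was the highest of its group in 6 of 9 members (Gls2, Hal, Sdsl, Cdh1, Hsd17b13 and Ctsc), Young PH library 1 in 7 of 9 and Smo (-) PH library 1 in 8 of 9. Over the 12 libraries of young and old mice, Pearson's r of log2 CPM between pairs of members ran from -0.78 for Sds and Sdsl to 0.92 for Gls2 and Hal. Of 36 pairs, 11 had r above 0.5 and 6 below -0.5. These are descriptions of libraries that share their groups, and after the group means were taken off, r for Gls2 and Hal was 0.88. The genes most like a member over the same 12 libraries were Tmprss6 (r = 0.991) and Nucb1 (0.986) for Pigr, Sh3pxd2a (0.983) and Plppr2 (0.974) for Sds, Psen2 (0.980) and Paox (0.966) for Gls2, and Mpv17l (0.973) and Epm2a (0.960) for Hal. For Cdh1 they were Slc16a4 (0.974) and Zcchc4 (0.962), for Hsd17b13 Lrpap1 (0.979) and Ttc27 (0.966), and for Ctsc Des (0.964), a marker of stellate cells, and Cmtm7 (0.956). Prkar1a (0.972) was among the 2 most like Sdsl, and Ssbp3 (0.956) among the 2 most like Uroc1.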

How the data were processed

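RNA-seq was performed on hepatocytes of 18 mice in 8 groups, and the files deposited by the authors hold unnormalized counts, that is, whole read pairs assigned to each Ensembl gene. Per the labels, polyadenylated RNA was enriched. The submitters' processing notes name Trim Galore, STAR 2.5.0c, mm10, SAMtools, Picard and HTSeq. The strand setting and the annotation release are not given in the sources used here. Genes were taken by identifier and named from GENCODE M21, and 0 sample columns were unused.

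A single edgeR model (version 4.0.16, R 4.3.3) with a mean per group was fitted to all genes of each table by quasi-likelihood after TMM scaling, and low genes were removed by filterByExpr (minimum count 10, minimum total 15). This kept 14554 genes with 8 residual degrees of freedom in 12 libraries of young and old mice and 13654 genes with 2 in 6 floxed libraries. The threshold was 0.05 on p adjusted over all genes tested by Benjamini-Hochberg. CPM use TMM factors, and correlations use log2 CPM with a prior count of 2. The scripts were tested on simulated data. Adjusted p-values in the text are edgeR's unless another tool is named.

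Alternatives were DESeq2 1.42.0 (rounding was not needed), RLE size factors, no low-count filter, no mitochondrial genes, and protein-coding genes only. Further ones were a gene-length correction, the replicate number as a block, a fit of only the groups compared, and leaving out each library in turn. The planned calls of Smo (+) PH against Smo (+) are not given, since each group is 1 mouse. A fit without Old libraries 2 and 3, which leaves 1 old library whose spread is taken from the other groups, was added after seeing the data. The members and the lists of related genes were chosen with earlier results of these data known. The text names all members, up to 3 genes of a list per comparison by smallest adjusted p, and for likeness the 2 genes with the highest r among tested genes at a mean of 1 CPM or more, of which 2 are not reported here.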

Additional observations from a re-analysis of the deposited data

Results flagged for a closer look

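In 5 cases the response of a member to PH differed between groups by a test of the difference itself. Between old and young mice this was Ctsc, whose log2 change after PH differed by -1.46 (old minus young). Between Smo (-) and Smo (+) mice these were Gls2 (-1.28), Sds (-2.15), Hsd17b13 (1.07) and Ctsc (1.30), each of which rests on 1 Smo (+) library at each time. The Smo (+) library at 0 h stood apart, with 22.5% of its reads from mitochondrial genes. The difference for Ctsc had opposite signs with age and with Smo. In both the summed immune markers were highest where Ctsc was high, at 80.5 to 451 CPM in old hepatocytes and at 333 CPM in Smo (+) hepatocytes at 0 h. The part of immune cells in these differences was not tested.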

How the results depend on the processing

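Of 720 values recomputed without a single library, 659 kept their direction and their side of the threshold, 21 lost a call, 19 gained it and 21 turned in sign; of 697 values under other alternatives the numbers were 670, 6, 19 and 2. In the test of whether PH acted differently with age, edgeR called 1 member, or 2 under DESeq2, no low-count filter, the gene-length correction and the replicate block, where Sds passed as well (adjusted p = 0.0229, 0.0398, 0.0480 and 0.0401); it called 0 without Old libraries 2 and 3, and 0 to 1 without a single library. That between Smo (-) and Smo (+) called 4 members, and 2 to 5 without a single library.

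The replicate numbers did not pair the samples, with correlations of deviations between same-numbered libraries of -0.112 to 0.226 in young and old mice and -0.0394 in Smo (-) mice. With the replicate number as a block, Cdh1 passed between old and young regenerating hepatocytes (-1.58, adjusted p = 0.0383) beside the call of Sds given above. The other member calls stayed on their side of the threshold.

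None of the values that turned in sign was called with all libraries in the fit. Without a single library Hal ran from -0.01 to 0.29 between old and young. After PH in young mice Ctsc ran from -0.28 to 0.10, and in old mice Hsd17b13 ran from -0.38 to 0.14 (0.05 without Old libraries 2 and 3) and Cdh1 from -0.32 to 1.61, the latter called without Old PH library 1 or 2. In the difference between ages Sdsl ran from -0.54 to 0.36 and Hsd17b13 from -0.21 to 0.32. Between Smo (-) and Smo (+) at 48 h Gls2 ran from -0.18 to 0.07, Hal from -0.14 to 0.55, Sds from -0.34 to 0.23, Cdh1 from -0.14 to 0.18, Pigr from -0.12 to 0.03 and Ctsc from -0.06 to 0.02 (0.03 with the gene-length correction). In Smo (-) mice after PH Sds ran from -0.85 to 0.15, where the fit without Smo (-) library 1 called it, and Hsd17b13 from 0.00 to 0.19.

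Uroc1 lost its call without the low-count filter between old and young (0.0507) and after PH in young mice (0.0515), and Hsd17b13 that in the difference between Smo (-) and Smo (+) with the gene-length correction (0.0918). Gls2 gained a call after PH in old mice under DESeq2 (0.0158), RLE size factors (0.0343), no filter (0.0300), protein-coding genes only (0.0494) and the gene-length correction (0.0381), and in the difference between Smo (-) and Smo (+) Uroc1 gained a call under DESeq2 (0.0159) and no filter (0.0147) and Hal under no filter (0.0243). DESeq2 gave no adjusted p for Cdh1 in young and old mice. The cause of these changes was not tested.

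Over all genes, the number called in the difference between ages was 474, but 1096 under DESeq2 and 60 to 825 without a single library, with 69.8% of calls higher against 56.4% under DESeq2, 54.8% without the filter and 59.2% with the gene-length correction. Between Smo (-) and Smo (+) at 48 h it was 17, but 48 under DESeq2, 179 without the filter and 28 to 104 without a single library, with 29.4% higher against 14.3% with the gene-length correction. It was 4124 after PH in Smo (-) mice, but 2482 without Smo (-) PH library 2, and 1466 in the difference between Smo (-) and Smo (+), but 2991 without the filter and 3751 without Smo (-) library 2. The gene-length correction moved the median of all genes from -0.05 to 0.07 between old and young and from -0.07 to 0.03 between the regenerating groups. The fit of only the groups compared was not run for the lone Smo (+) libraries.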
